A study of Homo sapiens with 12 samples.

Results

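HL-60 cells, a human promyelocytic leukaemia line, were compared after 4 days of all-trans retinoic acid (ATRA) with the same line at 0 h, before any ATRA. The comparison used 6 of the study's 12 RNA-seq libraries, 3 labelled RA0h and 3 labelled RA4d, and covered every gene with enough reads to test. The other 6 libraries came from 4 h and 2 d of ATRA, and the 2 d libraries are set beside the 4 d values where they add to them. All treated cultures received ATRA at 1 µM, and every group was grown in IMDM that held serum (20%, fetal bovine) and antibiotics (1%, penicillin-streptomycin). Total RNA was sequenced. The study asked how gene expression changes as these cells turn into neutrophil-like cells. HL-60 is a single cell line. Whether the 3 libraries of a group came from different cultures is not in the labels. The p-values below therefore rest only on the spread among libraries of the same group, and that spread may be technical. It was estimated over all 12 libraries, those of 4 h and 2 d included. No untreated library of 4 d was used here, so 4 days of ATRA and 4 days of culture cannot be told apart. In RNA from a whole culture, fewer cells of a type and less RNA per cell cannot be told apart either.

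Retinoic acid enters the nucleus and binds retinoic acid receptors, which sit on DNA as partners of the retinoid X receptors and switch from holding genes off to turning them on. Myeloid leukaemia lines such as HL-60 answer to it by leaving the cell cycle and maturing along the granulocyte line. A maturing neutrophil first makes the proteins of its primary (azurophil) granules, then those of the secondary (specific) and tertiary (gelatinase) granules, and last the receptors and the NADPH oxidase with which it finds, engulfs and oxidises microbes.

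The 3 libraries at 0 h held 10843263, 12077671 and 10223158 reads assigned to genes, and those at 4 d held 10254085, 9372996 and 10965224. Levels are given as CPM, the reads of a gene per 1000000 reads assigned to genes, with library totals scaled by TMM factors. Replicate 2 at 0 h and replicate 1 at 4 d stood apart from the other libraries of their groups. In both, genes rich in G and C read higher and genes poor in them read lower than in the other libraries of the group (Spearman's rho across 8402 genes between GC content and the deviation from the group mean was 0.653 and 0.542, against -0.682, -0.411, -0.558 and -0.409 in the other 4). A principal component analysis of 8748 genes placed the groups apart on the first component, with 83.1% of the variance, and these 2 libraries apart on the second, with 14.3%. Without both of them 7777 genes were called, and 6970 of the calls made with all libraries were among them. The biological coefficient of variation was 27% at 0 h and 22% at 4 d.

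Most tested genes differed between 4 d and 0 h, in nearly equal numbers upward and downward. Of 12671 genes tested, 7330 (57.8%) passed an adjusted p under 0.05 in the quasi-likelihood test of edgeR, adjusted after Benjamini and Hochberg, which is what "called" means below. Among them 3563 (28.1%) were higher and 3767 (29.7%) were lower at 4 d, and 7475 genes (59.0%) had no overlap between the 3 libraries of each group. Changes of at least 2-fold counted 2230 genes (17.6%) in each direction. The median log2 fold change over all tested genes was 0.00. Fold changes are log2 values of 4 d against 0 h, ± SE, with 3 libraries in each group throughout, and the shares above are the background against which each gene list is read. Where a list below had 0 genes called in a direction at 4 d against 0 h, edgeR's test also gave 0 at an unadjusted p under 0.05 and DESeq2 called 0. Between 2 d and 4 d, 3374 genes (26.6%) were called, 1660 (13.1%) higher and 1714 (13.5%) lower at 4 d. That count was 2245 without replicate 1 at 2 d and 2110 without replicate 2 at 2 d. The 4 d libraries are shared by both comparisons.

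**Figure D1:**
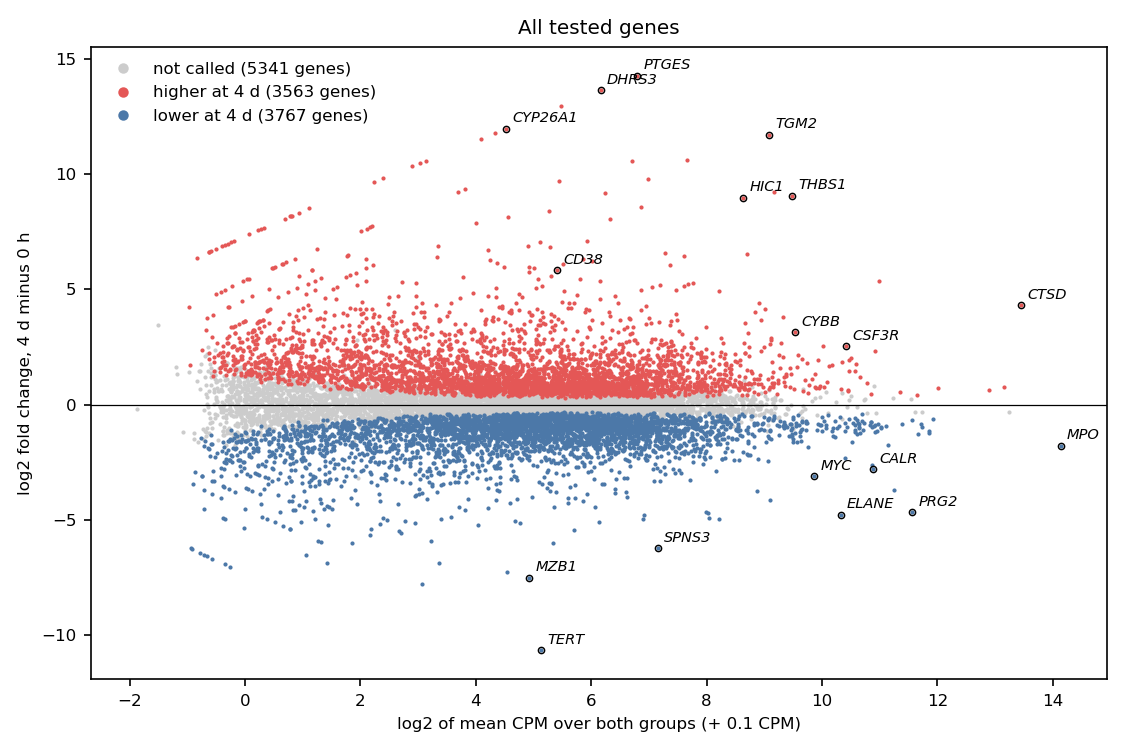
Each point is 1 of the 12671 tested genes: the horizontal axis is the log2 of its mean level (CPM) over both groups, the vertical axis its log2 fold change at 4 d against 0 h, and colour shows the 3563 genes called higher and the 3767 called lower. Genes named in the text lie at both edges, from PTGES and DHRS3 at the top to TERT at the bottom.

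Genes that retinoic acid is known to induce were among the steepest rises. Of 31 members of a list of retinoic acid response genes 22 could be tested. Of these, 17 were called higher and 3 lower, with a median log2 fold change of 2.09. CYP26A1 and DHRS3, with 0 reads at 0 h, passed the filter on low counts only through ATRA libraries and could not be called lower. They are counted in this share and median. Without replicate 2 at 0 h the median was 2.71. CYP26A1, the cytochrome P450 that breaks retinoic acid down, had 0, 0 and 0 CPM at 0 h and 47.9, 42.9 and 46 CPM at 4 d. That is at least 488-fold higher, taking 3 reads over the group as the limit that a count of 0 allows. DHRS3, a reductase that turns retinaldehyde back to retinol, had 0, 0 and 0 CPM at 0 h and 169, 122 and 137 CPM at 4 d, at least 1521-fold higher. Both genes thus had reads only in the ATRA libraries of this pair of groups, and CYP26A1 was still low earlier, with 3.17, 3.93 and 1.6 CPM at 2 d.

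TGM2, the tissue transglutaminase long used as a marker of retinoid action in myeloid cells, stood at 0.184, 0.091 and 0.682 CPM at 0 h and 818, 1304 and 1119 CPM at 4 d (log2 fold change 11.71 ± 0.46, edgeR adjusted p = 7.37e-10). It was near that level already at 1076, 986 and 685 CPM at 2 d, and its log2 fold change was 12.82 without replicate 3 at 0 h. HIC1, a transcriptional repressor, gave 1.1, 2 and 1.56 CPM at 0 h and 966, 706 and 707 CPM at 4 d (log2 fold change 8.98 ± 0.35, edgeR adjusted p = 7.37e-10). CD38, the cell surface NAD glycohydrolase, gave 1.19, 1.09 and 2.14 CPM at 0 h and 54.4, 103 and 93 CPM at 4 d (log2 fold change 5.82 ± 0.34, edgeR adjusted p = 1.97e-08). ASB2, a ubiquitin ligase subunit, rose by 5.10 ± 0.27. For each of these 4 genes the lowest library at 4 d was far above the highest at 0 h. For TGM2, groups without overlap were a condition of being named among the largest rises.

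The list's 3 genes called lower included the receptor genes RXRA and RARG. RXRA, the retinoid X receptor that pairs with the retinoic acid receptors, stood at 257, 365 and 318 CPM at 0 h and 148, 158 and 155 CPM at 4 d and fell by 1.02 ± 0.18 (edgeR adjusted p = 0.000256). RARG, a retinoic acid receptor, and RDH10, which makes retinaldehyde, were the other 2 called lower, by 0.79 ± 0.27 (edgeR adjusted p = 0.0231) and by 0.56 ± 0.22 (edgeR adjusted p = 0.0451). The groups overlapped for RARG. Its call was lost with the 6 libraries fitted alone and without replicate 2 at 0 h (-0.50), replicate 2 at 4 d or replicate 3 at 4 d, and that of RDH10 under 12 of 14 alternatives, among them leaving out any 1 library except replicate 1 at 4 d.

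The promoter windows of 2 of the genes that went from 0 reads to clear expression are shown because each holds a retinoic acid receptor repeat. The windows come from RefSeq's table on GRCh38.p14 and run from 250 bases before to 50 bases after the start of transcription, 5′ to 3′ on the gene's strand. Capitals mark the repeat, which was searched on both strands as 2 copies in the same direction with 5, 2 or 1 bases between them. Each copy was AGGTCA as the usual form, or GGGTCA as one variant of it, AGTTCA as another variant and GGTTCA as the last. CYP26A1 (chr10:93073643-93073942, plus strand) has its repeat 90 bases before the start, read on the opposite strand, and BATF2 (chr11:64990228-64990527, minus strand) has it 29 bases before the start.
CYP26A1: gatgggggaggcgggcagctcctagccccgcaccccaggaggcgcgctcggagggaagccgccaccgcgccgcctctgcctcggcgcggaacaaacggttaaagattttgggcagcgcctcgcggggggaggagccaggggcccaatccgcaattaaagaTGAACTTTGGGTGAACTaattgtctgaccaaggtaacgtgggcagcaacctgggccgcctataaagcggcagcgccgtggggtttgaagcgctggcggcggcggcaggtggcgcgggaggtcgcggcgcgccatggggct
BATF2: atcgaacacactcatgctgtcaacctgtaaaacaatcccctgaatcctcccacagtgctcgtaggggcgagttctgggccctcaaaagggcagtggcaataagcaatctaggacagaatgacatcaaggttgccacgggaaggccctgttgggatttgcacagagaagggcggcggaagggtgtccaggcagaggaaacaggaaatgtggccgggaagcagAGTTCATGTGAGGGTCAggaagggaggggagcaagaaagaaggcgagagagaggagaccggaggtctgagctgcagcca
In both the spacing is 5 bases. Of 27305 genes in the table, 87 (0.3%) hold such a repeat at any of the 3 spacings and 29 (0.1%) at a spacing of 5. In the retinoic acid list 2 of 22 genes with a window hold one (9.1%), CYP26A1 and RARB, the latter named after its sequence was seen. CFLAR, described with the apoptosis genes below, is the other named gene that holds one. The retinoic acid list was made of genes known to answer to it, so its share describes the list and not the change. At any of the 3 spacings, 0.8% of genes called higher by at least 2-fold hold a repeat, against 0.4% of tested genes. A match describes letters in the window and is not a measured binding site.

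Other genes among the largest rises had 0 reads at 0 h. PTGES, which makes prostaglandin E2, had 0, 0 and 0 CPM at 0 h and 201, 234 and 232 CPM at 4 d, at least 2391-fold higher. BATF2, a leucine zipper transcription factor, likewise had 0, 0 and 0 CPM at 0 h and 100, 72.6 and 93.6 CPM at 4 d, at least 953-fold higher. DAAM2, a formin that builds actin filaments, and LRRC32, which anchors latent TGF-beta on the cell surface, also had 0 reads at 0 h and were at least 429-fold and 356-fold higher. Levels at 4 d ran from 28.2 CPM for LRRC32 to 234 CPM for PTGES in single libraries.

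THBS1, the matrix glycoprotein thrombospondin, stood at 2.85, 2.18 and 2.92 CPM at 0 h and 1109, 1655 and 1535 CPM at 4 d (log2 fold change 9.07 ± 0.32, edgeR adjusted p = 5.08e-10). ALS2CL gave 1.93, 2.09 and 1.75 CPM at 0 h and 1508, 922 and 1024 CPM at 4 d (log2 fold change 9.21 ± 0.39, edgeR adjusted p = 1.2e-09). The cell adhesion molecule CADM1 stood at 0, 0.273 and 0.0974 CPM at 0 h and 159, 235 and 233 CPM at 4 d (log2 fold change 10.59 ± 0.48, edgeR adjusted p = 2.24e-09), and its log2 fold change, which starts from 0 to few reads, was 11.80 without replicate 2 at 0 h. Groups without overlap were a condition for naming a gene among the largest changes, so this adds no support for these 3 genes.

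PALLD, an actin-bundling protein, rose by 9.77 ± 0.41 and IHH, the secreted ligand Indian hedgehog, by 9.18 ± 0.39. A sodium channel subunit gene, SCN4B, had 3 reads over the 0 h group and 2711 over the 4 d group, a ratio of 931 (95% counting interval 318 to 4518). MLXIPL, a glucose-sensing transcription factor, and ATP10A, a phospholipid flippase, had 1 read each over the 0 h group. Their ratios were 876 (157 to 34631) and 820 (147 to 32434). Intervals and limits of this kind cover counting error only. Without replicate 1 at 0 h the log2 fold changes of SCN4B, MLXIPL and ATP10A were 12.90, 11.26 and 11.14.

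The largest falls were led by TERT, the catalytic subunit of telomerase. It stood at 37.8, 122 and 50.7 CPM at 0 h and 0.104, 0 and 0 CPM at 4 d, that is 2270 reads over the 0 h group against 1 over the 4 d group, 2203-fold lower (95% counting interval 395 to 87060). It was at 1.37, 0.681 and 1.48 CPM at 2 d. Its log2 fold change was -9.99 without replicate 2 at 0 h and -12.62 without replicate 1 at 4 d. MZB1, an endoplasmic reticulum protein of antibody-secreting cells, gave 51.3, 82 and 47.2 CPM at 0 h and 0.52, 0.198 and 0.261 CPM at 4 d (log2 fold change -7.50 ± 0.44, edgeR adjusted p = 2.07e-08). IGLL1, a surrogate light chain of B cell precursors, gave 43.5, 52.3 and 42.1 CPM at 0 h and 0.623, 0 and 0.261 CPM at 4 d (log2 fold change -7.26 ± 0.48, edgeR adjusted p = 6.3e-08), and -8.26 without replicate 1 at 4 d. For these 3 genes too, groups without overlap were a condition of being named among the largest changes.

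SPNS3, a spinster family transporter, fell by 6.24 ± 0.36 and the vesicular nucleotide transporter SLC17A9 by 4.90 ± 0.39 (-4.31 without replicate 2 at 0 h). ASS1, the argininosuccinate synthase that makes arginine, stood at 74.7, 86.9 and 76.9 CPM at 0 h and 1.45, 1.09 and 1.13 CPM at 4 d (log2 fold change -6.01 ± 0.23, edgeR adjusted p = 6.97e-10). AHNAK, a very large scaffold protein, fell by 5.11 ± 0.25, FAM46C by 5.03 ± 0.25, and GAL, the neuropeptide galanin, by 5.12 ± 0.26. MYO7A, an unconventional myosin, fell by 6.89 ± 0.43 (-7.60 without replicate 2 at 4 d). CITED4, a transcriptional co-regulator, and WNT6, a secreted WNT ligand, were highest in replicate 2 at 0 h, where CITED4 read 202 CPM against 48.6 and 54.9 in the other 2. Without that library their changes of -5.42 ± 0.68 and -5.23 ± 0.56 became -4.44 and -4.60. Without replicate 1 at 4 d they became -6.19 and -5.94.

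Genes of primary granule proteins fell as a group, while those of later granules were split. Of 21 tested primary granule genes 13 were called lower, each by at least 2-fold, and 5 higher, with a median log2 fold change of -1.78. Their summed level ran from 46658 to 58683 CPM at 0 h and from 12262 to 14744 CPM at 4 d. PRG2, EPX and RNASE3, all called lower, are in this list and again among the eosinophil markers below. Between 2 d and 4 d, 14 of the 21 were called lower and 0 higher by edgeR (1 at an unadjusted p under 0.05, and 1 called by DESeq2). The median was -1.91 without replicate 1 at 0 h and -1.61 without replicate 3 at 0 h.

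MPO, the myeloperoxidase that makes hypochlorous acid, stood at 23325, 24619 and 36060 CPM at 0 h and 6946, 8808 and 8624 CPM at 4 d (log2 fold change -1.78 ± 0.22, edgeR adjusted p = 1.51e-05). It was still at 32922, 29209 and 24801 CPM at 2 d, and the change from 2 d to 4 d was -1.83 ± 0.22 (edgeR adjusted p = 9.43e-05). ELANE, neutrophil elastase, stood at 1704, 3710 and 2011 CPM at 0 h and 111, 76.2 and 85.3 CPM at 4 d (log2 fold change -4.77 ± 0.36, edgeR adjusted p = 1.77e-07). PRTN3, proteinase 3, stood at 3352, 6604 and 3614 CPM at 0 h and 417, 280 and 335 CPM at 4 d (log2 fold change -3.72 ± 0.35, edgeR adjusted p = 1.16e-06). ELANE was thus already low at 490, 411 and 483 CPM at 2 d, while PRTN3 was at 2665, 2056 and 2587 CPM at 2 d.

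Cathepsin G (CTSG) gave 518, 456 and 535 CPM at 0 h and 16.7, 18.6 and 22.5 CPM at 4 d (log2 fold change -4.70 ± 0.22, edgeR adjusted p = 3.47e-09). AZU1, the antimicrobial protein azurocidin, gave 1622, 3622 and 1527 CPM at 0 h and 658, 323 and 382 CPM at 4 d (log2 fold change -2.31 ± 0.38, edgeR adjusted p = 0.000175). CST7, a cystatin that restrains granule proteases, fell by 4.98 ± 0.20, and PRSS57, a serine protease of the same granules, by 4.97 ± 0.34. The groups did not overlap for any of these 7 genes, which was a condition for naming CST7 and PRSS57 among the largest falls. For the 3 neighbours ELANE, PRTN3 and AZU1, replicate 2 at 0 h read well above the other libraries of its group and replicate 1 at 4 d was the highest of its own.

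The 5 primary granule genes called higher moved by less than 2-fold. DEFA4, a defensin, stood at 36.4, 27.8 and 23.2 CPM at 0 h and 62.5, 50.7 and 51.1 CPM at 4 d (log2 fold change 0.91 ± 0.19, edgeR adjusted p = 0.00116) and was higher still by value at 107, 147 and 139 CPM at 2 d. HEXA and GUSB, lysosomal glycosidases, rose by 0.95 ± 0.16 and 0.62 ± 0.17. SERPINB1, an inhibitor of elastase, rose by 0.85 ± 0.15 and the granule membrane tetraspanin CD63 by 0.76 ± 0.16. None of the 5 genes had overlapping groups.

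Of 22 tested secondary and tertiary granule genes, 9 were called higher (40.9%, against 28.1% of all tested genes) and 6 lower (27.3%, against 29.7%). Their median log2 fold change was 0.33. The median was 0.046 without replicate 2 at 0 h, 0.092 without replicate 1 at 4 d and 0.014 without replicate 2 at 4 d. LTF, lactoferrin, the defining protein of secondary granules, fell: it stood at 15.7, 18.3 and 20.1 CPM at 0 h and 1.66, 2.48 and 2.87 CPM at 4 d (log2 fold change -2.93 ± 0.24, edgeR adjusted p = 4.24e-07). CAMP, the cathelicidin of the same granules, stood at 3.58, 3.55 and 1.85 CPM at 0 h and 2.39, 1.69 and 2 CPM at 4 d and was not called (log2 fold change -0.57 ± 0.35, edgeR adjusted p = 0.18). CEACAM8, a surface glycoprotein kept in these granules, stood at 108, 58.2 and 94.7 CPM at 0 h and 151, 237 and 218 CPM at 4 d (log2 fold change 1.21 ± 0.23, edgeR adjusted p = 0.000485). The groups were apart for LTF and CEACAM8 and overlapped for CAMP, with no library above 3.58 CPM.

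MMP25, a membrane-anchored metalloproteinase, had the largest rise of this list, with 29, 53.4 and 29.6 CPM at 0 h and 339, 214 and 227 CPM at 4 d (log2 fold change 2.80 ± 0.28, edgeR adjusted p = 2.19e-06). FOLR3, a secreted folate receptor, rose by 1.95 ± 0.23, the protease ADAM8 by 1.61 ± 0.31, HP (haptoglobin) by 1.26 ± 0.17 and PGLYRP1, which binds bacterial peptidoglycan, by 0.89 ± 0.20. FCN1, a lectin shared with monocytes, fell by 4.13 ± 0.29 and SLPI, a protease inhibitor, by 2.91 ± 0.23. STOM, a membrane scaffold protein, fell by 0.74 ± 0.22, a call that was lost without replicate 1 at 0 h (edgeR adjusted p = 0.0561).

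The NADPH oxidase, the complex that makes superoxide, moved one way. Of its 11 tested members 8 were called higher and 0 lower, with a median log2 fold change of 0.75, and 1.08 without replicate 2 at 0 h. The summed level went from between 2494 and 3646 CPM at 0 h to between 6207 and 7796 CPM at 4 d. CYBB, the catalytic membrane subunit, stood at 165, 114 and 173 CPM at 0 h and 1131, 1508 and 1367 CPM at 4 d (log2 fold change 3.14 ± 0.21, edgeR adjusted p = 6.28e-08). NCF1, the organiser p47phox, stood at 56.8, 128 and 68 CPM at 0 h and 1558, 969 and 1061 CPM at 4 d (log2 fold change 3.82 ± 0.33, edgeR adjusted p = 6.31e-07), a value that is uncertain because near-identical pseudogenes can share its reads. For both subunits the lowest library at 4 d lay far above the highest at 0 h. Replicate 2 at 0 h was the highest of its group for NCF1 and the lowest for CYBB.

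The regulators rose less. VAV1, which loads the RAC GTPases, rose by 1.20 ± 0.14, HVCN1, the proton channel that balances the charge of the oxidase, by 1.16 ± 0.16, and RAP1A, a GTPase that co-purifies with it, by 0.75 ± 0.15. The promoter window of CYBB (chrX:37779809-37780108, plus strand) is shown because its gene carries 2 matches to an interferon element. Capitals mark the element, searched on both strands as a pair of GAAA with any 2 bases between them, and the first match begins 225 bases before the start.
CYBB: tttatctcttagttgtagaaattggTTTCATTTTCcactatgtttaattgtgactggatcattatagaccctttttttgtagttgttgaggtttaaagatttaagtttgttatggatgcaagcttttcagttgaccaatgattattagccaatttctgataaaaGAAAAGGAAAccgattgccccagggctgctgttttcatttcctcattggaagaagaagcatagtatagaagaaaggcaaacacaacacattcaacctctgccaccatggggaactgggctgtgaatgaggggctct
NCF1 is the other of 6 oxidase genes with a window that holds the element (33.3%, against 1195 of 27305 genes, 4.4%).

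**Figure D2:**
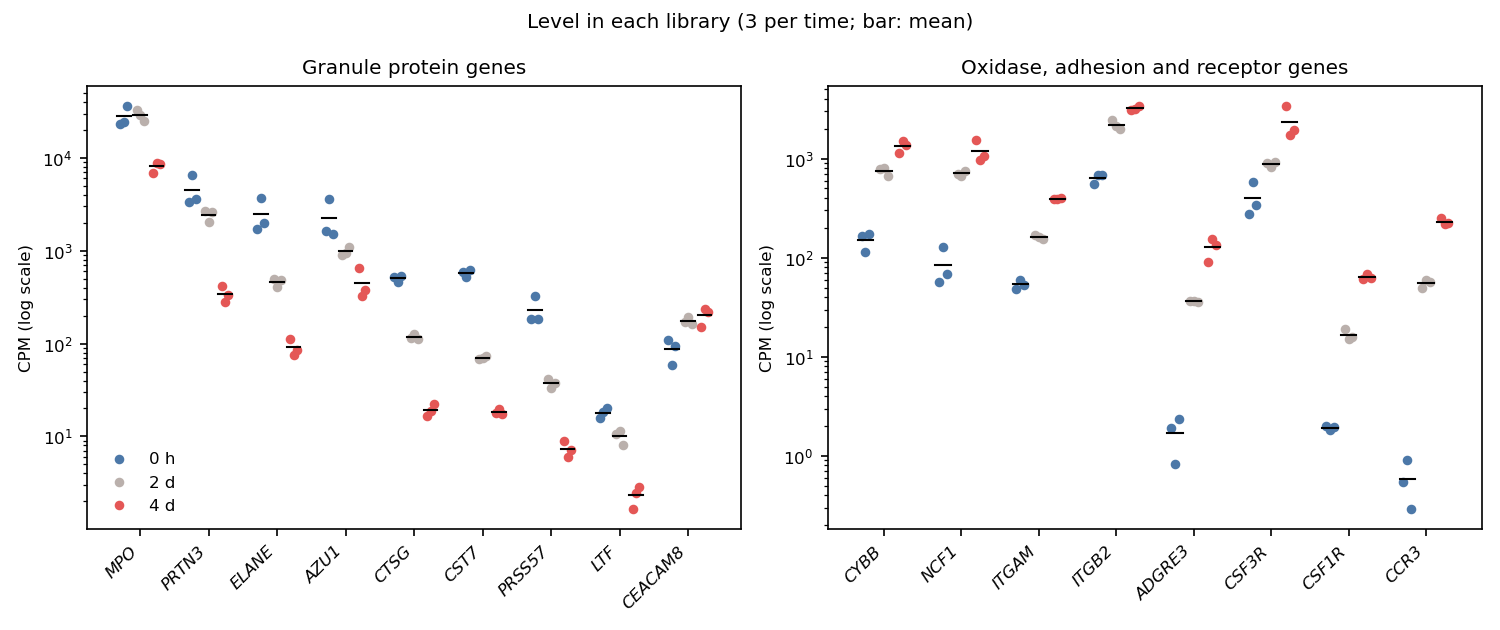
Level of each gene in every library on a logarithmic axis (CPM), with 0 h, 2 d and 4 d side by side, 1 point per library and a bar at the mean. The left panel shows granule protein genes, where the primary granule genes drop by 4 d and CEACAM8 rises, and the right panel shows oxidase, adhesion and receptor genes, which all rise.

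Surface receptors of mature phagocytes rose widely. Of 27 tested leukocyte adhesion genes 14 were called higher and 4 lower (median log2 fold change 0.96). Of the 27, 1 had 0 reads at 0 h or at 4 d and is counted among them and in the median. ITGAM, the integrin chain CD11b by which granulocytic maturation is usually scored, stood at 48.5, 59.9 and 52.8 CPM at 0 h and 390, 394 and 399 CPM at 4 d (log2 fold change 2.88 ± 0.15, edgeR adjusted p = 6.89e-09). Its partner ITGB2 (CD18) stood at 551, 684 and 682 CPM at 0 h and 3131, 3198 and 3382 CPM at 4 d (log2 fold change 2.34 ± 0.20, edgeR adjusted p = 5.77e-07). ADGRE3, an adhesion receptor of myeloid cells, stood at 1.93, 0.819 and 2.34 CPM at 0 h and 91.2, 155 and 135 CPM at 4 d (log2 fold change 6.23 ± 0.35, edgeR adjusted p = 1.48e-08). The 3 libraries of each group lay close together for ITGAM, which read between 390 and 399 CPM at 4 d.

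ICAM1, the ligand of those integrins, rose by 5.14 ± 0.22, the integrin chain ITGB7 by 4.98 ± 0.21, CEACAM1, an inhibitory adhesion receptor, by 4.95 ± 0.19 and ADGRE1 by 3.64 ± 0.25. Among the genes called lower, CEACAM6, a granulocyte glycoprotein, fell by 1.94 ± 0.25 and ITGA5, the fibronectin receptor chain, by 0.95 ± 0.16. Of the 4 adhesion genes called lower 3 fell by at least 2-fold, and the lowest log2 fold change among tested members was -6.44.

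Chemoattractant receptors steer neutrophils to sites of infection. Of 23 tested, 18 were called higher and 2 lower (median log2 fold change 1.47). CCR3, the eotaxin receptor better known from eosinophils, led them with 0.551, 0.91 and 0.292 CPM at 0 h and 249, 221 and 224 CPM at 4 d (log2 fold change 8.59 ± 0.30, edgeR adjusted p = 5.08e-10). CCR1, a receptor of inflammatory chemokines, stood at 20.1, 12.4 and 20.8 CPM at 0 h and 143, 192 and 181 CPM at 4 d (log2 fold change 3.28 ± 0.20, edgeR adjusted p = 3.35e-08). FPR1, the receptor of bacterial formyl peptides, stood at 11.7, 8.64 and 10.8 CPM at 0 h and 21.7, 26.9 and 23 CPM at 4 d (log2 fold change 1.20 ± 0.18, edgeR adjusted p = 6.9e-05). FPR1 was lower by value at 5.56, 6.13 and 4.92 CPM at 2 d, and its rise from 2 d to 4 d was 2.10 ± 0.19 (edgeR adjusted p = 1.04e-05).

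CXCR2, a receptor of interleukin 8, stood at 18.5, 15.8 and 22.9 CPM at 0 h and 44, 56.4 and 56.8 CPM at 4 d (log2 fold change 1.46 ± 0.16, edgeR adjusted p = 5.7e-06). The purine receptor P2RY13 rose by 3.37 ± 0.17 and the adenosine receptor ADORA3 by 3.04 ± 0.26. OXER1, a receptor of oxidised eicosanoids, rose by 1.82 ± 0.44, and CCR2, the CCL2 receptor of monocytes, by 1.97 ± 0.21 while it fell by 0.97 ± 0.18 from 2 d to 4 d (edgeR adjusted p = 0.002). P2RY2, a nucleotide receptor, and S1PR4, a sphingosine phosphate receptor, were the 2 called lower, by 1.05 ± 0.20 and 0.93 ± 0.23.

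Of 17 tested Fc and complement receptors, 14 were called higher and 0 lower at 4 d, and the counts against 2 d were also 14 higher and 0 lower (edgeR 0 at an unadjusted p under 0.05, DESeq2 0). VSIG4, a complement receptor known from tissue macrophages, stood at 1.47, 1.09 and 1.27 CPM at 0 h and 91.3, 84.7 and 92 CPM at 4 d (log2 fold change 6.12 ± 0.19, edgeR adjusted p = 3.05e-10). CR1, the C3b receptor, stood at 11.1, 11.1 and 15.9 CPM at 0 h and 158, 270 and 236 CPM at 4 d (log2 fold change 4.12 ± 0.24, edgeR adjusted p = 1.79e-08). FCER1G, the signalling chain that Fc receptors share, stood at 67.3, 37.4 and 52.8 CPM at 0 h and 188, 225 and 208 CPM at 4 d (log2 fold change 1.98 ± 0.20, edgeR adjusted p = 2.86e-06). None of the 3 had overlapping groups.

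FCGRT, the neonatal Fc receptor, rose by 2.71 ± 0.32, and CD55, which shields cells from complement, by 1.71 ± 0.22. FCGR2C rose by 4.73 ± 0.41, but its sequence is close to that of its neighbours FCGR2A and FCGR2B, so the split of reads between them is uncertain. FCGR1A, the high-affinity IgG receptor, stood at 24.9, 25.6 and 18.6 CPM at 0 h and 47, 31.7 and 28 CPM at 4 d (log2 fold change 0.63 ± 0.20, edgeR adjusted p = 0.0176). Its call was lost with the 6 libraries fitted alone, without replicate 3 at 0 h and without replicate 1 at 4 d, and FCGR1A too has close copies.

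The inhibitory and activating receptors of the LILR, Siglec, SIRP and CD300 families had the highest share of calls in one direction among the receptor lists described here: 25 of 27 tested genes were called higher and 0 lower, with a median log2 fold change of 2.19. Against 2 d 22 of the 27 were called higher at 4 d. LILRA5 stood at 4.6, 3.91 and 4.68 CPM at 0 h and 394, 379 and 383 CPM at 4 d (log2 fold change 6.45 ± 0.19, edgeR adjusted p = 2.27e-10). LILRB2, an inhibitory receptor of HLA molecules, stood at 8.92, 13.5 and 10.4 CPM at 0 h and 530, 361 and 380 CPM at 4 d (log2 fold change 5.27 ± 0.26, edgeR adjusted p = 5.14e-09). CD300LB stood at 13, 7.82 and 11.3 CPM at 0 h and 370, 411 and 420 CPM at 4 d (log2 fold change 5.23 ± 0.21, edgeR adjusted p = 8.01e-10). For all 3 the lowest library at 4 d lay far above the highest at 0 h. SIGLEC7, which binds sialic acid, rose by 4.03 ± 0.19. LILRA3 and LILRA1 rose by 4.04 ± 0.27 and 3.62 ± 0.24. The LILR genes are near-copies of each other in 1 cluster, so reads may be split between them.

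Pattern recognition genes, which sense microbial molecules, were called higher in 17 of 28 cases and lower in 6 (median log2 fold change 0.84). CLEC7A, the beta-glucan receptor dectin-1, stood at 8.09, 7.82 and 7.79 CPM at 0 h and 70.8, 71.6 and 78.5 CPM at 4 d (log2 fold change 3.22 ± 0.21, edgeR adjusted p = 5.09e-08). It was no higher by value at 5.22, 6.28 and 6.53 CPM at 2 d. MYD88, the adaptor of most Toll-like receptors, rose by 2.45 ± 0.15, the inflammasome genes NLRC4 and NLRP12 by 3.21 ± 0.15 and 2.92 ± 0.24, CLEC4A by 2.78 ± 0.22 and TLR8, a sensor of single-stranded RNA, by 2.38 ± 0.34. The DNA sensor TLR9 fell by 1.75 ± 0.24, CLEC5A by 0.97 ± 0.14, NLRP3 by 0.84 ± 0.20, IRAK1 by 0.83 ± 0.20 and CLEC12A by 0.77 ± 0.14.

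CD14, the lipopolysaccharide co-receptor of monocytes, stood at 20.4, 24.7 and 22.3 CPM at 0 h and 14, 16.9 and 14.2 CPM at 4 d (log2 fold change -0.58 ± 0.18, edgeR adjusted p = 0.0135). It was lowest at 3.94, 4.54 and 3.82 CPM at 2 d. The call against 0 h was lost without replicate 3 at 4 d (edgeR adjusted p = 0.0539), and without replicate 2 at 0 h and replicate 1 at 4 d together (log2 fold change -0.47, edgeR adjusted p = 0.0632).

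Of 41 tested cytokine and growth factor receptors, 26 were called higher and 6 lower (median log2 fold change 1.19). Of the 41, 1 had 0 reads at 0 h or at 4 d and is counted among them and in the median. CSF3R, the receptor of the granulocyte growth factor G-CSF, stood at 276, 587 and 341 CPM at 0 h and 3386, 1719 and 1931 CPM at 4 d (log2 fold change 2.55 ± 0.32, edgeR adjusted p = 1.69e-05). CSF1R, the receptor of the macrophage growth factor M-CSF, stood at 2.02, 1.82 and 1.95 CPM at 0 h and 60.9, 67.8 and 63.1 CPM at 4 d (log2 fold change 5.04 ± 0.19, edgeR adjusted p = 6.97e-10). Both rose with no overlap between groups. CSF2RB, the chain shared by the GM-CSF, IL-3 and IL-5 receptors, rose by 2.09 ± 0.18, IL10RA by 2.43 ± 0.17, IL18R1 by 2.84 ± 0.24 and IL13RA1 by 2.20 ± 0.18. TFRC, the transferrin receptor that brings iron into growing cells, stood at 484, 259 and 483 CPM at 0 h and 62.3, 99.7 and 91.5 CPM at 4 d (log2 fold change -2.27 ± 0.26, edgeR adjusted p = 8.26e-06). INSR, the insulin receptor, fell by 1.75 ± 0.13 and IL2RG, the common gamma chain, by 1.19 ± 0.16.

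Interferon-stimulated genes, the set that type I and II interferons switch on through STAT and IRF factors, rose together without an agent of that kind in the labels. Of 64 members 53 could be tested. Of these, 40 were called higher and 4 lower, with a median log2 fold change of 1.43. Their summed level ran from 1439 to 1595 CPM at 0 h and from 2997 to 3296 CPM at 4 d. Of the 53 tested, 1 had 0 reads at 0 h or at 4 d and is counted among them and in the median. MX2, an antiviral GTPase, stood at 3.22, 3.46 and 4.97 CPM at 0 h and 64.8, 54.3 and 54.9 CPM at 4 d (log2 fold change 3.90 ± 0.19, edgeR adjusted p = 4.13e-09). OAS3, which makes the second messenger of RNase L, stood at 4.14, 2.37 and 5.65 CPM at 0 h and 18.2, 34.1 and 35.2 CPM at 4 d (log2 fold change 2.85 ± 0.32, edgeR adjusted p = 6.84e-06). OAS3 was lower in replicate 1 at 4 d than in the other 2 libraries, though above all of 0 h.

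LGALS3BP, a secreted glycoprotein, rose by 4.70 ± 0.28, MX1 by 3.12 ± 0.33, PARP12 by 3.02 ± 0.33 and TRIM22 by 2.60 ± 0.20, with single libraries at 4 d between 6.97 and 43.4 CPM. LAP3, a peptidase, and BST2, which tethers budding viruses, fell by 0.90 ± 0.16 and 0.69 ± 0.20. Of the 4 genes called lower 2 fell by at least 2-fold, both outside the naming rule. The lowest log2 fold change among tested members was -3.45. TNFSF10, the death ligand TRAIL, stood at 5.42, 2.09 and 4.77 CPM at 0 h and 2.49, 4.46 and 5.14 CPM at 4 d and was not called (log2 fold change -0.01 ± 0.34, edgeR adjusted p = 0.974), and its log2 fold change was above 0 under the 2 other scalings (0.006 with RLE factors, 0.053 with library totals).

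The interferon element described for CYBB was present in 33 of 49 of these genes with a promoter window (67.3%), against 4.4% of all genes and 5.7% of the genes called higher by at least 2-fold. Many genes of this list are known to carry such elements, so the share describes the list and not the change. The windows of LGALS3BP (chr17:78979874-78980173, minus strand) and MX1 (chr21:41420308-41420607, plus strand), the 2 members with the largest rises among the named ones that hold it, show the element in capitals. It lies 58 bases before the start in LGALS3BP and within the transcribed bases in MX1.
LGALS3BP: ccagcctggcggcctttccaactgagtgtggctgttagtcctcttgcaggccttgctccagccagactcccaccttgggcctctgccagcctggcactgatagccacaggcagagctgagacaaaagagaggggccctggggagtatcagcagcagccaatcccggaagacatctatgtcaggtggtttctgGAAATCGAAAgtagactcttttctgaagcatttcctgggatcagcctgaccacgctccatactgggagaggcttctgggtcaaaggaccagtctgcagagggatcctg
MX1: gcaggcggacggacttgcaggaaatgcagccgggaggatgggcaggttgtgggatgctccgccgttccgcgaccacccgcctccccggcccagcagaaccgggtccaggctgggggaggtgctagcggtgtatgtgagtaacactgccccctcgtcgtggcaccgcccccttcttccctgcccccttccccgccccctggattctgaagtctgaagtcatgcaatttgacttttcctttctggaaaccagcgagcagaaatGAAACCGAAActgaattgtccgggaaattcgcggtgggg

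Of 34 antigen presentation genes 23 could be tested, with 13 called higher and 1 lower (median log2 fold change 0.93). CD1D, which presents lipids, stood at 2.02, 3.46 and 2.05 CPM at 0 h and 121, 101 and 107 CPM at 4 d (log2 fold change 5.44 ± 0.21, edgeR adjusted p = 6.97e-10). CD74, the invariant chain of HLA class II, rose by 1.88 ± 0.23, the protease CTSS that trims it by 1.78 ± 0.21, TAPBPL by 1.95 ± 0.16 and the costimulator CD86 by 1.71 ± 0.25. CD83, a surface marker of activated dendritic cells, fell by 1.41 ± 0.18. TAPBP, the peptide-loading factor tapasin, was called higher (log2 fold change 1.56 ± 0.57, edgeR adjusted p = 0.0309), a call lost without replicate 1 or 3 at 0 h, without replicate 1 at 4 d and without both of the libraries that stood apart.

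Of 42 cytokines and chemokines 28 could be tested, with 16 called higher and 4 lower (median log2 fold change 0.97). CCL2, a monocyte attractant, stood at 18.4, 15.9 and 12.7 CPM at 0 h and 142, 146 and 160 CPM at 4 d (log2 fold change 3.25 ± 0.19, edgeR adjusted p = 2.19e-08). CCL24, an eosinophil attractant that signals through CCR3, stood at 0.46, 0.364 and 0.195 CPM at 0 h and 22.7, 43.1 and 44.3 CPM at 4 d (log2 fold change 6.70 ± 0.41, edgeR adjusted p = 2.85e-08). CCL22 rose by 5.29 ± 0.47, CXCL16 by 4.61 ± 0.27, IL16 by 1.35 ± 0.18 and IL1B by 1.25 ± 0.32. VEGFA, the vascular growth factor, stood at 113, 233 and 130 CPM at 0 h and 73.9, 45.2 and 46.9 CPM at 4 d (log2 fold change -1.52 ± 0.26, edgeR adjusted p = 0.00023). All 4 genes called lower fell by at least 2-fold, and the lowest log2 fold change among tested members was -3.13.

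Transcription factors of the myeloid line moved in both directions. Of 52 tested, 20 were called higher (38.5%, against 28.1% of all tested genes) and 19 lower (36.5%, against 29.7%). The median log2 fold change was 0.22, and between -0.003 without replicate 1 at 4 d and 0.245 without replicate 3 at 4 d. MYC, which drives growth and ribosome production, stood at 1237, 1947 and 1814 CPM at 0 h and 238, 159 and 182 CPM at 4 d (log2 fold change -3.11 ± 0.22, edgeR adjusted p = 1.08e-07). MYB, a factor of immature blood cells, stood at 267, 232 and 255 CPM at 0 h and 72.3, 77.3 and 78.7 CPM at 4 d (log2 fold change -1.72 ± 0.14, edgeR adjusted p = 3.36e-07). CEBPA, which opens the granulocyte programme in progenitors, stood at 965, 1041 and 1051 CPM at 0 h and 400, 401 and 375 CPM at 4 d (log2 fold change -1.38 ± 0.22, edgeR adjusted p = 0.000125). All 3 fell with no overlap between groups, and CEBPA was at 1193, 786 and 829 CPM at 2 d, near its 0 h level.

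GATA2, a progenitor and mast cell factor, fell by 4.07 ± 0.26, WT1 fell by 4.86 ± 0.27 and BCL11A by 2.62 ± 0.19. CEBPB, the C/EBP factor of emergency granulopoiesis, stood at 55.2, 84.1 and 53.6 CPM at 0 h and 379, 235 and 271 CPM at 4 d (log2 fold change 2.20 ± 0.23, edgeR adjusted p = 3.21e-06). CEBPE, the factor of secondary granule genes, stood at 533, 847 and 569 CPM at 0 h and 1055, 919 and 985 CPM at 4 d (log2 fold change 0.60 ± 0.24, edgeR adjusted p = 0.0432), and its call was lost under 7 of 14 alternatives: the 6 libraries fitted alone, the replicate block, and leaving out replicate 1 or 3 at 0 h or any single library at 4 d. EGR3, EGR1, PRDM1 and RUNX2 rose by 3.76 ± 0.44, 1.99 ± 0.25, 3.14 ± 0.33 and 2.34 ± 0.16. EGR1 is better known from monocytes and macrophages.

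SPI1, the factor PU.1 of all phagocytes, stood at 550, 1381 and 716 CPM at 0 h and 1539, 846 and 940 CPM at 4 d and was not called (log2 fold change 0.33 ± 0.34, edgeR adjusted p = 0.425). Replicate 2 at 0 h was the highest library of its group and lay inside the range at 4 d, and without it SPI1 was called (log2 fold change 0.81, edgeR adjusted p = 0.0276). GFI1, a repressor of the monocyte programme, stood at 249, 363 and 324 CPM at 0 h and 395, 373 and 384 CPM at 4 d and was not called (log2 fold change 0.30 ± 0.17, edgeR adjusted p = 0.139), but was without the same library (log2 fold change 0.42, edgeR adjusted p = 0.0381).

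Genes of DNA replication fell almost without exception. Of 54 tested, 53 were called lower, 47 of them by at least 2-fold, and 0 higher, with a median log2 fold change of -1.42. From 2 d to 4 d 52 of the 54 were called lower. The summed level was 7369 to 8099 CPM at 0 h and 2647 to 2752 CPM at 4 d. MCM2, part of the replicative helicase, stood at 410, 322 and 511 CPM at 0 h and 97.5, 135 and 132 CPM at 4 d (log2 fold change -1.77 ± 0.21, edgeR adjusted p = 1.13e-05). MCM6, of the same helicase, stood at 221, 117 and 220 CPM at 0 h and 32.8, 51.7 and 52.4 CPM at 4 d (log2 fold change -2.03 ± 0.25, edgeR adjusted p = 1.41e-05). CDC45, which joins that helicase at the origin, stood at 119, 154 and 138 CPM at 0 h and 37.3, 30.8 and 30.1 CPM at 4 d (log2 fold change -2.06 ± 0.17, edgeR adjusted p = 5.05e-07). MCM2 was at 484, 466 and 366 CPM at 2 d, inside its range at 0 h.

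POLD2, a DNA polymerase delta subunit, fell by 2.90 ± 0.25, UNG, which removes uracil from DNA, by 2.58 ± 0.18, GINS2 by 2.43 ± 0.22 and the licensing factor CDT1 by 2.00 ± 0.24. Of 65 tested mitotic genes, 39 were called lower, 13 of them by at least 2-fold, and 1 higher, with a median of -0.60, while 60 of the 65 were called lower than at 2 d. CCNB1, cyclin B1, stood at 63.1, 35.2 and 53.5 CPM at 0 h and 17.6, 27.4 and 27.7 CPM at 4 d (log2 fold change -1.06 ± 0.21, edgeR adjusted p = 0.000858). CDC25A, a phosphatase that lets cells into S phase and mitosis, stood at 104, 77.7 and 87 CPM at 0 h and 20.1, 16.1 and 17.6 CPM at 4 d (log2 fold change -2.32 ± 0.16, edgeR adjusted p = 6.4e-08).

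MKI67, the proliferation marker Ki-67, stood at 276, 230 and 293 CPM at 0 h and 280, 309 and 304 CPM at 4 d and was not called (log2 fold change 0.16 ± 0.16, edgeR adjusted p = 0.417). It was at 586, 462 and 467 CPM at 2 d, and its change from 2 d to 4 d was -0.76 ± 0.16 (edgeR adjusted p = 0.00435). ASPM, a spindle protein, was the 1 mitotic gene called higher, at 55.6, 43.6 and 55.6 CPM at 0 h and 65.4, 89.1 and 86 CPM at 4 d (log2 fold change 0.64 ± 0.21, edgeR adjusted p = 0.0204). That call was lost without replicate 2 at 0 h and without replicate 2 or 3 at 4 d. CENPM, MAD2L1, CKS2, SPC24 and PTTG1, of the kinetochore, the spindle checkpoint and the anaphase machinery, fell by 1.77 ± 0.21, 1.66 ± 0.18, 1.46 ± 0.18, 1.43 ± 0.17 and 1.41 ± 0.18.

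The promoters of both lists were searched for letters known from cell cycle genes. E2F letters (TTTCCCGC, TTTGGCGC or TTTCGCGC on either strand, some of which overlap across strands) are in the windows of 24 of 47 replication genes (51.1%), 6 of 55 mitosis genes (10.9%) and 902 of 27305 genes in all (3.3%). The CHR letters TTTGAA, named for the cell cycle genes homology region, are in 40 of 55 mitosis genes (72.7%), 3 of 47 replication genes (6.4%) and 18.2% of all. NF-Y letters (CCAAT) are in 42 of the mitosis genes (76.4%), 29 of the replication genes (61.7%) and 39.7% of all genes. A gene with several windows counts as holding a motif where any window does. Among genes called lower by at least 2-fold, 7.3% hold E2F letters and 11.1% hold CHR letters, against 5.6% and 13.6% of tested genes. The letters were chosen as known from cell cycle genes, so the shares of the 2 lists describe the lists and not the change. The windows of GINS2 (chr16:85688905-85689204, minus strand) and MCM6 (chr2:135876394-135876693, minus strand) show E2F letters in capitals, and those of MAD2L1 (chr4:120066799-120067098, minus strand) and CKS2 (chr9:89310945-89311244, plus strand) show CHR letters. The first pair are the largest falls among the named replication genes that hold E2F letters, and the other pair the largest among the named mitosis genes that hold CHR letters.
GINS2: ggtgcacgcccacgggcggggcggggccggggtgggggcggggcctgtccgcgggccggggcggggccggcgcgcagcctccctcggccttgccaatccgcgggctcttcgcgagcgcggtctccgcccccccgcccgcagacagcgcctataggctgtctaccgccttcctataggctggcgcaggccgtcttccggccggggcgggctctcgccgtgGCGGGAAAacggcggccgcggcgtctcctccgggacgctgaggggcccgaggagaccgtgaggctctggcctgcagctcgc
MCM6: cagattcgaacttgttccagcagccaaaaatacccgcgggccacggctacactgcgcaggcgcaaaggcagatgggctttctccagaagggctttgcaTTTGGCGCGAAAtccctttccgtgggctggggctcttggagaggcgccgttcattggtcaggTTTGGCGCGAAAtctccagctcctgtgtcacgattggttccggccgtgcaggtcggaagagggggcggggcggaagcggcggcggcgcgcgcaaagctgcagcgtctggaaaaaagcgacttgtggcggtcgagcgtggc
MAD2L1: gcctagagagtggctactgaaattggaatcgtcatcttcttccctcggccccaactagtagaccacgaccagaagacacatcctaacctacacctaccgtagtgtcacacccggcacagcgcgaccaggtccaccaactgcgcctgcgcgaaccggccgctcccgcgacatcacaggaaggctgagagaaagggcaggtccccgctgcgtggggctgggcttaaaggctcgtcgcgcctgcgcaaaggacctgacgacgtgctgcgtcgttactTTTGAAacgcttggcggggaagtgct
CKS2: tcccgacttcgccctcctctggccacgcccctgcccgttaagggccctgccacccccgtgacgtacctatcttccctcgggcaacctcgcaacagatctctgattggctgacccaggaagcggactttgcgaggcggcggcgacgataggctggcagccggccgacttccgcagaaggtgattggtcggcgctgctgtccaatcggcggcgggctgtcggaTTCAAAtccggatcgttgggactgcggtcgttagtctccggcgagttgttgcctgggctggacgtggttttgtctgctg
MCM6 has 4 matches in 2 places, each with overlapping matches on the 2 strands. In CKS2 the CHR letters lie 29 bases before the start on the opposite strand.

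**Figure D3:**
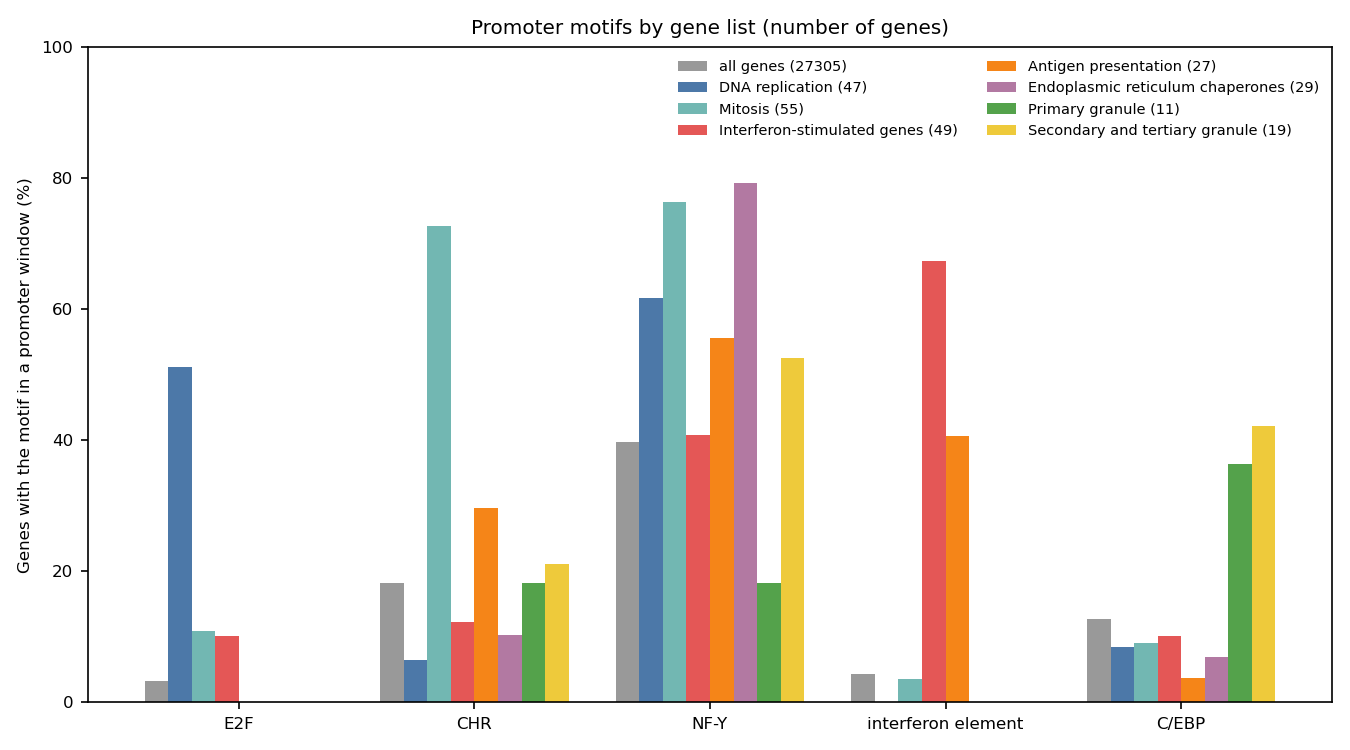
Bars give the percentage of genes, among those of each list with a promoter window, that hold each motif in a window of 300 bases, with all 27305 genes of the table in grey. E2F bars are highest for DNA replication (51.1%), CHR for mitosis (72.7%), the interferon element for interferon-stimulated genes (67.3%) and NF-Y for endoplasmic reticulum chaperones (79.3%).

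Of 35 genes of cell cycle exit and G1 control 7 were called higher and 14 lower (median log2 fold change -0.35, and -0.204 without replicate 1 at 4 d, -0.224 without replicate 3 and -0.23 without replicate 1 at 0 h). CDK4 and CDK6, kinases of the G1 phase, stood at 264, 304 and 287 CPM at 0 h and 74, 59.6 and 72.6 CPM at 4 d and at 154, 84.8 and 145 CPM at 0 h and 20.4, 35.3 and 32.1 CPM at 4 d respectively. CDK4 fell by 2.05 ± 0.17 (edgeR adjusted p = 4.12e-07) and CDK6 by 2.13 ± 0.26 (edgeR adjusted p = 1.57e-05). CCNE1, cyclin E1, fell by 2.20 ± 0.23, E2F1 by 2.03 ± 0.25, TFDP2, a partner of E2F factors, by 2.10 ± 0.20 and GADD45B by 1.70 ± 0.24. Without overlap between groups, each of these was lower in all 3 libraries at 4 d.

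On the other side, the antiproliferative genes BTG2 and BTG1 rose by 2.69 ± 0.19 and 2.06 ± 0.14, the cyclin CCNG2 of resting cells by 1.84 ± 0.17, RBL2, a relative of the retinoblastoma protein, by 1.13 ± 0.20, CCND3 by 0.92 ± 0.21 and the CDK inhibitor CDKN2D by 0.82 ± 0.21. CDKN1A, the CDK inhibitor p21, stood at 2.11, 1.36 and 2.44 CPM at 0 h and 1.04, 1.49 and 1.92 CPM at 4 d and was not called (log2 fold change -0.40 ± 0.35, edgeR adjusted p = 0.35). CDKN2C, the CDK inhibitor p18, stood at 80.8, 64.8 and 101 CPM at 0 h and 82.1, 114 and 100 CPM at 4 d and was not called against 0 h (log2 fold change 0.27 ± 0.19, edgeR adjusted p = 0.241), but was highest at 193, 181 and 159 CPM at 2 d. The groups overlapped for both.

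**Figure D4:**
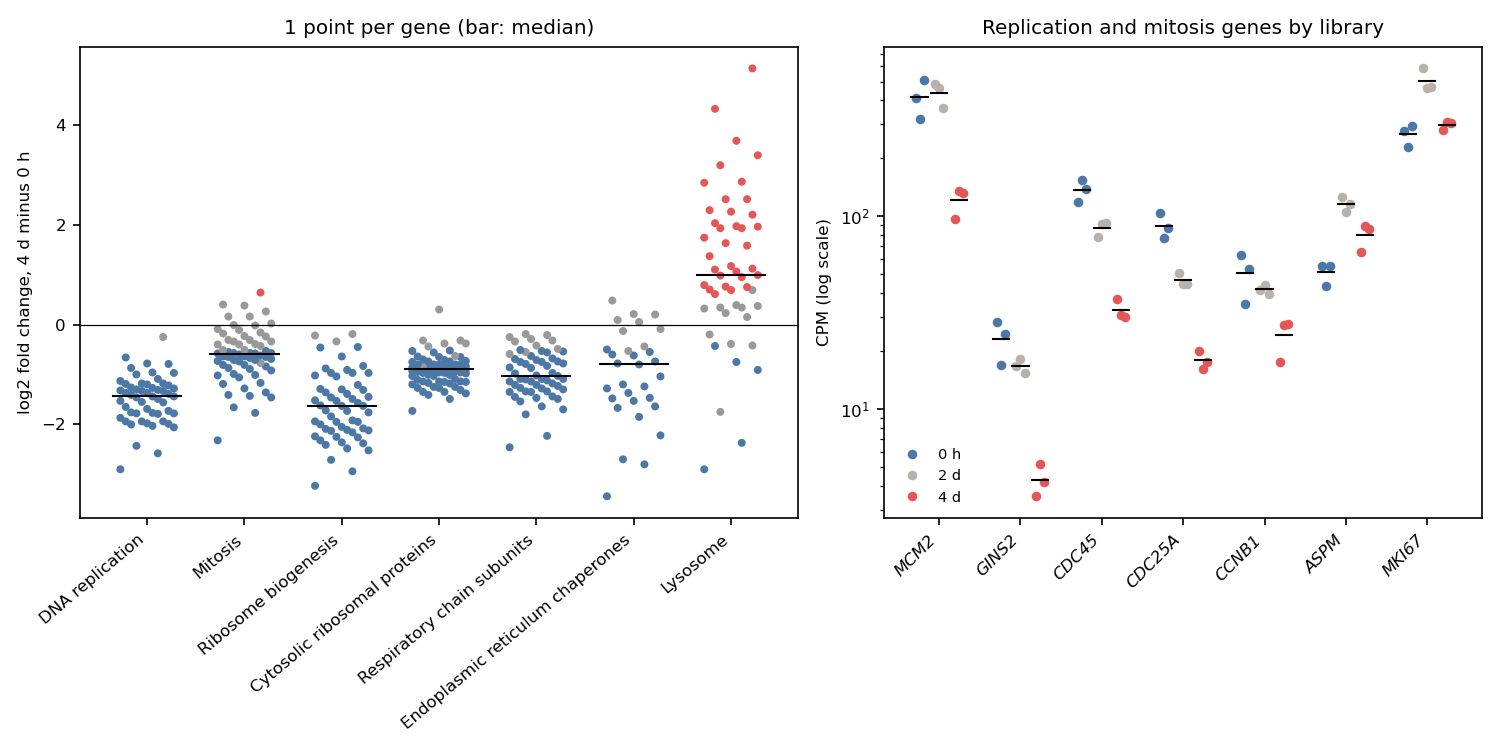
The left panel places every tested gene of 7 lists by its log2 fold change at 4 d against 0 h, with a bar at the median and colour for the call, and the right panel shows 7 replication and mitosis genes in each library (CPM, log axis) at 0 h, 2 d and 4 d. The lists other than lysosome lie mostly below 0, and MKI67 and ASPM stand at or above their 0 h level while the replication genes lie below it.

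Genes for making ribosomes fell. Of 57 ribosome biogenesis genes, which process and assemble ribosomal RNA in the nucleolus, 54 were called lower and 0 higher (median log2 fold change -1.63). NPM3, a nucleolar chaperone, stood at 138, 117 and 105 CPM at 0 h and 13.5, 11.4 and 13.3 CPM at 4 d (log2 fold change -3.23 ± 0.19, edgeR adjusted p = 2.24e-08). MRTO4, an assembly factor of the large subunit, stood at 183, 151 and 137 CPM at 0 h and 25.7, 17.1 and 18.8 CPM at 4 d (log2 fold change -2.94 ± 0.20, edgeR adjusted p = 8.04e-08). EBNA1BP2, LYAR, NOP16 and NLE1 fell by 2.71 ± 0.17, 2.52 ± 0.15, 2.48 ± 0.18 and 2.41 ± 0.15. Their levels were below all 0 h libraries in each of the 3 libraries at 4 d.

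Of 74 cytosolic ribosomal protein genes 66 were called lower and 0 higher (median log2 fold change -0.89). Together they took 112974 to 144331 CPM at 0 h and 66131 to 80376 CPM at 4 d. RPS21 stood at 1273, 951 and 867 CPM at 0 h and 423, 375 and 394 CPM at 4 d (log2 fold change -1.38 ± 0.20, edgeR adjusted p = 5.17e-05). RPL36 stood at 1158, 1095 and 700 CPM at 0 h and 509, 301 and 353 CPM at 4 d (log2 fold change -1.35 ± 0.26, edgeR adjusted p = 0.000533). RPS18, RPL17 and RPS29 fell by 1.73 ± 0.28, 1.41 ± 0.22 and 1.35 ± 0.36. Ribosomal protein genes have many processed pseudogenes, so their counts depend on how reads with several matches were handled.

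Genes of amino acid and nucleotide synthesis were mostly called lower. Of 34 genes of serine, one-carbon and amino acid synthesis 26 were called lower and 1 higher (median log2 fold change -1.73). PHGDH, the first enzyme of serine synthesis, stood at 137, 177 and 161 CPM at 0 h and 13.1, 9.81 and 10.6 CPM at 4 d (log2 fold change -3.82 ± 0.22, edgeR adjusted p = 1.68e-08). PSAT1, the next enzyme, fell by 3.40 ± 0.24, GPT2, a mitochondrial alanine transaminase, by 4.03 ± 0.18, PYCR1, the last step of proline synthesis, by 4.01 ± 0.29 and the leucine transporter SLC7A5 by 3.33 ± 0.22. The cystine transporter SLC7A11 was the 1 gene called higher, at 36.5, 24.6 and 30.8 CPM at 0 h and 94.3, 124 and 118 CPM at 4 d (log2 fold change 1.87 ± 0.20, edgeR adjusted p = 3.84e-06).

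Of 28 nucleotide synthesis genes 22 were called lower and 2 higher (median log2 fold change -1.62). PAICS, PFAS and PPAT, enzymes of purine synthesis, fell by 2.89 ± 0.20, 2.45 ± 0.19 and 2.02 ± 0.20, and CAD, which starts pyrimidine synthesis, by 1.92 ± 0.26. NME1 fell by 3.13 ± 0.27 and its neighbour and near-copy NME2 by 2.47 ± 0.47 (-1.60 without replicate 2 at 0 h), values that may share reads. The 2 called higher break nucleotides down: SAMHD1, which destroys deoxynucleotides, stood at 29.3, 6.82 and 29.3 CPM at 0 h and 83.5, 247 and 218 CPM at 4 d (log2 fold change 3.07 ± 0.48, edgeR adjusted p = 0.00012). TYMP, thymidine phosphorylase, stood at 18.2, 36.9 and 22.3 CPM at 0 h and 218, 135 and 152 CPM at 4 d (log2 fold change 2.70 ± 0.33, edgeR adjusted p = 1.41e-05). For SAMHD1, replicate 2 at 0 h and replicate 1 at 4 d were the lowest libraries of their groups, and for TYMP they were the highest.

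Of 58 respiratory chain subunits 48 were called lower and 0 higher (median log2 fold change -1.02). ATP5G1, a subunit of ATP synthase, stood at 248, 347 and 232 CPM at 0 h and 59.5, 44.8 and 46.3 CPM at 4 d (log2 fold change -2.46 ± 0.21, edgeR adjusted p = 5.78e-07). NDUFB9, NDUFS6 and NDUFAB1 of complex I fell by 2.23 ± 0.24, 1.70 ± 0.19 and 1.54 ± 0.18, ATP5J by 1.64 ± 0.21 and cytochrome c (CYCS) by 1.80 ± 0.29. Between 2 d and 4 d 12 of the 58 were called lower.

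Glycolysis and the pentose phosphate path were split. Of 41 tested genes, 14 were called higher (34.1%, against 28.1% of all tested genes) and 18 lower (43.9%, against 29.7%). The median log2 fold change of 0.06 changed sign without replicate 2 at 0 h (-0.14) and without replicate 2 or 3 at 4 d (-0.061 and -0.02). PGD, of the pentose phosphate path that supplies NADPH, stood at 354, 276 and 354 CPM at 0 h and 1165, 1366 and 1334 CPM at 4 d (log2 fold change 1.97 ± 0.17, edgeR adjusted p = 5.48e-07). GAPDH, which oxidises glyceraldehyde phosphate in glycolysis, stood at 4584, 4443 and 4742 CPM at 0 h and 1794, 1933 and 1979 CPM at 4 d (log2 fold change -1.27 ± 0.19, edgeR adjusted p = 6.93e-05). ENO1 fell by 1.75 ± 0.20, the lactate dehydrogenases LDHA and LDHB by 2.01 ± 0.18 and 2.18 ± 0.20, PFKP by 1.73 ± 0.18 and PGM1 by 1.47 ± 0.24. FBP1, which reverses the phosphofructokinase step, rose by 3.17 ± 0.21, PFKFB2 by 2.77 ± 0.40, the hexokinase HK3 by 2.52 ± 0.34 and the sugar transporters SLC2A5 and SLC2A3 by 2.90 ± 0.24 and 1.98 ± 0.19.

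Of 31 genes of cholesterol synthesis and uptake, 15 were called lower and 3 higher (median log2 fold change -0.53). CYP51A1, EBP, ACAT2, LSS and NSDHL, enzymes of the synthetic path, fell by 1.48 ± 0.20, 1.34 ± 0.25, 1.30 ± 0.18, 1.25 ± 0.16 and 1.22 ± 0.16. ABCA1, which exports cholesterol, stood at 4.14, 3 and 4.68 CPM at 0 h and 43.5, 69.3 and 62.8 CPM at 4 d (log2 fold change 3.89 ± 0.37, edgeR adjusted p = 1.47e-06). NR1H3, the sterol receptor LXR-alpha, rose by 1.34 ± 0.34.

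Endoplasmic reticulum chaperones and folding enzymes were called lower in 22 of 31 cases and higher in 0 (median log2 fold change -0.80, and -1.01 without replicate 2 at 0 h). CALR, the chaperone calreticulin, stood at 4160, 2129 and 3673 CPM at 0 h and 369, 521 and 539 CPM at 4 d (log2 fold change -2.80 ± 0.25, edgeR adjusted p = 8.65e-07). XBP1, the transcription factor of the unfolded protein response, stood at 281, 219 and 300 CPM at 0 h and 36, 42.8 and 44.4 CPM at 4 d (log2 fold change -2.70 ± 0.17, edgeR adjusted p = 3.76e-08). PDIA5, a disulfide isomerase, fell by 3.44 ± 0.18, MANF by 2.22 ± 0.19 and SDF2L1 by 1.67 ± 0.22. PDIA6 fell by 1.85 ± 0.43, with replicate 2 at 0 h (53.2 CPM) inside the range of 4 d. NF-Y letters are in 23 of 29 of these genes with a window (79.3%).

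Lysosomal genes went the other way. Of 51 tested, 34 were called higher and 5 lower (median log2 fold change 0.99), and their summed level rose from between 6513 and 7382 CPM to between 32319 and 36284 CPM. The number called lower was 3 under library totals, with the 6 libraries fitted alone, with the replicate block, and without replicate 1 at 0 h or replicate 3 at 4 d. CTSD, the aspartic protease cathepsin D, gave most of the reads in that sum at 4 d but not at 0 h. It stood at 795, 1326 and 1081 CPM at 0 h and 23657, 19244 and 21200 CPM at 4 d (log2 fold change 4.32 ± 0.29, edgeR adjusted p = 6.67e-08). TFEB, the transcription factor of lysosomal genes, stood at 8.09, 12.6 and 7.31 CPM at 0 h and 149, 100 and 112 CPM at 4 d (log2 fold change 3.68 ± 0.26, edgeR adjusted p = 1.08e-07). SGSH, which degrades heparan sulfate, stood at 6.34, 15 and 11 CPM at 0 h and 479, 306 and 346 CPM at 4 d (log2 fold change 5.13 ± 0.31, edgeR adjusted p = 2.88e-08). The groups were far apart for all 3, and SGSH rose mainly after 2 d, from 37, 29.6 and 43.5 CPM at 2 d.

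The glycosidases GAA and FUCA1 rose by 3.39 ± 0.27 and 3.19 ± 0.18 and the proton pump subunit ATP6V0A1 by 2.86 ± 0.21. LIPA, the acid lipase, fell by 2.90 ± 0.35 and MAN2B1, a mannosidase, by 0.75 ± 0.20. GLA, alpha-galactosidase, fell by 0.43 ± 0.17 (edgeR adjusted p = 0.0492), with overlapping groups, a call lost under 11 of 14 alternatives.

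Of 17 tested genes of eicosanoid synthesis, the lipid mediators made from arachidonic acid, 10 were called higher, each by at least 2-fold, and 4 lower (median log2 fold change 1.94). PTGES, with 0 reads at 0 h, passed the filter on low counts only through ATRA libraries and could not be called lower. It is counted in these calls and this median. The median was between 1.203 and 1.653 without replicate 2 at 0 h or without any single library at 4 d. Besides PTGES, ALOX5AP, the partner of 5-lipoxygenase in leukotriene synthesis, stood at 179, 173 and 154 CPM at 0 h and 1220, 1e+03 and 1038 CPM at 4 d (log2 fold change 2.69 ± 0.17, edgeR adjusted p = 4.88e-08). PTGS1, cyclooxygenase 1, stood at 56.9, 57 and 56 CPM at 0 h and 378, 349 and 373 CPM at 4 d (log2 fold change 2.69 ± 0.14, edgeR adjusted p = 5.86e-09). CYP4F3, which inactivates leukotriene B4, rose by 3.77 ± 0.25, TBXAS1, thromboxane synthase, by 2.51 ± 0.18 and PLA2G7 by 2.60 ± 0.37. PTGES3, a co-chaperone, fell by 1.04 ± 0.27 and PTGR1 by 0.85 ± 0.18. GGT1 and PLA2G4A fell by 0.65 ± 0.24 and 0.52 ± 0.21 with overlapping groups. The call of GGT1 was lost without replicate 2 or 3 of either group, and that of PLA2G4A under 9 of 14 alternatives, among them leaving out replicate 1 or 3 of either group.

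Among 33 genes of the BCL2 family and apoptosis 15 were called higher and 6 lower (median log2 fold change 0.50). BCL2, which holds off apoptosis in progenitors, stood at 57.1, 47.7 and 57.8 CPM at 0 h and 7.27, 8.92 and 10.5 CPM at 4 d (log2 fold change -2.60 ± 0.17, edgeR adjusted p = 6.21e-08). BCL2A1, its relative in mature granulocytes, stood at 31.5, 24.2 and 22.4 CPM at 0 h and 179, 145 and 155 CPM at 4 d (log2 fold change 2.61 ± 0.18, edgeR adjusted p = 7.8e-08). PMAIP1, the pro-apoptotic NOXA, stood at 12.1, 6.73 and 13.2 CPM at 0 h and 69.4, 114 and 108 CPM at 4 d (log2 fold change 3.18 ± 0.26, edgeR adjusted p = 3.79e-07). The 2 relatives BCL2 and BCL2A1 thus moved in opposite directions, with no overlap between groups for either.

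RIPK3, CASP9 and APAF1, which carry out necroptosis and apoptosis, rose by 2.11 ± 0.21, 1.82 ± 0.15 and 1.57 ± 0.33, and CFLAR, an inhibitor of death receptors, by 1.54 ± 0.15. BID, BCL2L12 and FADD fell by 0.94 ± 0.14, 0.93 ± 0.23 and 0.63 ± 0.16. DIABLO and CASP2 fell by 0.58 ± 0.19 and 0.42 ± 0.13, calls of which the first was lost with the 6 libraries fitted alone and without replicate 1 at 0 h or replicate 2 or 3 at 4 d, the other under library totals and with no filter on low counts.

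Neutrophil nuclei become lobed. Genes of the nuclear envelope and chromatin architecture were called about as often as all tested genes. Of 44 tested, 11 were called higher (25.0%, against 28.1% of all tested genes) and 14 lower (31.8%, against 29.7%). The median log2 fold change was -0.10, and between 0.018 without replicate 1 and -0.258 without replicate 2 at 0 h. LBR, the lamin B receptor needed for lobing, stood at 181, 125 and 174 CPM at 0 h and 464, 708 and 640 CPM at 4 d (log2 fold change 1.92 ± 0.22, edgeR adjusted p = 7.53e-06). LMNB1, lamin B1, stood at 174, 119 and 172 CPM at 0 h and 54.7, 73.4 and 70.8 CPM at 4 d (log2 fold change -1.22 ± 0.18, edgeR adjusted p = 6.9e-05). LMNA, the lamin that stiffens nuclei, stood at 103, 85 and 107 CPM at 0 h and 36.6, 46.6 and 49.5 CPM at 4 d (log2 fold change -1.15 ± 0.19, edgeR adjusted p = 0.000187). LBR was at 610, 560 and 521 CPM at 2 d, so most of its rise was present by then, whereas LMNB1 was at 158, 160 and 137 CPM at 2 d.

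LMNB2, HMGA1, BANF1, H2AFZ and SUN1 fell by 1.41 ± 0.17, 1.35 ± 0.17, 1.34 ± 0.21, 1.23 ± 0.18 and 1.16 ± 0.21. SYNE2 and SYNE1, which tie the nucleus to the cytoskeleton, rose by 2.47 ± 0.40 and 1.48 ± 0.31, and the linker histone H1F0 by 1.30 ± 0.18. PADI4, the arginine deiminase that citrullinates histones in neutrophil extracellular traps, stood at 79.3, 105 and 92.2 CPM at 0 h and 276, 244 and 239 CPM at 4 d (log2 fold change 1.46 ± 0.16, edgeR adjusted p = 5.95e-06). PADI2 of the same family rose by 2.36 ± 0.18.

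Of 32 genes of DNA methylation and Polycomb regulation 11 were called higher (34.4%, against 28.1% of all tested genes) and 8 lower (25.0%, against 29.7%). The median log2 fold change was 0.11, and 0.027 without both libraries that stood apart. DNMT1, which keeps methylation after replication, stood at 336, 444 and 464 CPM at 0 h and 184, 167 and 178 CPM at 4 d (log2 fold change -1.24 ± 0.16, edgeR adjusted p = 2.37e-05). DNMT3A, which sets new methylation, stood at 12.8, 16.7 and 15.4 CPM at 0 h and 78.2, 71.7 and 72.4 CPM at 4 d (log2 fold change 2.31 ± 0.17, edgeR adjusted p = 1.73e-07). TET2 and TET3, which oxidise methylcytosine, rose by 1.50 ± 0.24 and 1.18 ± 0.25, the H3K27 demethylases KDM6B and KDM6A by 1.32 ± 0.24 and 1.00 ± 0.15, and CBX7 by 2.40 ± 0.24. EZH2, the H3K27 methyltransferase, fell by 1.01 ± 0.15, CBX2 by 2.10 ± 0.24, RBBP7 by 1.03 ± 0.14 and KDM1A by 0.94 ± 0.23. RING1 was called lower by 1.54 ± 0.54, but its groups overlapped. The change was -0.69 without replicate 1 at 0 h, -1.24 without replicate 1 at 4 d and -1.42 without replicate 2 at 4 d, in each case with no call, and -2.13 without replicate 3 at 4 d.

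Genes of actin and motility were called higher in 21 of 49 cases and lower in 4 (median log2 fold change 0.36). FGR, a SRC family kinase of phagocytes, stood at 112, 191 and 110 CPM at 0 h and 1323, 774 and 822 CPM at 4 d (log2 fold change 2.82 ± 0.27, edgeR adjusted p = 1.38e-06). LSP1, an actin-binding protein of leukocytes, rose by 2.54 ± 0.24, the kinase LYN by 2.19 ± 0.20, CORO1B by 1.85 ± 0.21 and the myosin MYO1F by 1.74 ± 0.28. VIM, vimentin, fell by 1.72 ± 0.16, EZR by 1.67 ± 0.14, FLNA by 1.01 ± 0.19 and ARPC5L by 1.00 ± 0.16.

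S100 proteins and annexins were split, 6 of 17 higher (35.3%, against 28.1% of all tested genes) and 5 lower (29.4%, against 29.7%). Their median log2 fold change was 0.26. The median was 0.135 without replicate 2 at 0 h, 0.108 without replicate 1 at 4 d and 0.146 without replicate 2 at 4 d. S100A8, a chain of the neutrophil protein calprotectin, stood at 1122, 1007 and 820 CPM at 0 h and 1686, 1574 and 1506 CPM at 4 d (log2 fold change 0.69 ± 0.18, edgeR adjusted p = 0.00458). S100A9, its partner, stood at 1434, 737 and 1100 CPM at 0 h and 1419, 1876 and 1833 CPM at 4 d (log2 fold change 0.65 ± 0.24, edgeR adjusted p = 0.0334), with overlapping groups and a call lost without replicate 2 or 3 of either group. S100A6, S100A4 and S100P fell by 1.47 ± 0.21, by 1.33 ± 0.25 and by 1.15 ± 0.18. All 5 genes called lower fell by at least 2-fold, and the lowest log2 fold change among tested members was -4.86. S100A11 and ANXA4 rose by 0.71 ± 0.19 and 0.54 ± 0.16. ANXA1, annexin A1, was higher by 0.50 ± 0.20 with overlapping groups, and this call too was lost without replicate 2 or 3 of either group.

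Of 20 tested heat shock and immediate early genes 11 were called lower and 3 higher (median log2 fold change -0.72, and -0.445 without both libraries that stood apart). The cytosolic chaperone HSP90AB1 stood at 1316, 1184 and 1546 CPM at 0 h and 358, 393 and 386 CPM at 4 d (log2 fold change -1.83 ± 0.15, edgeR adjusted p = 4.25e-07). HSPD1 and HSPE1, the mitochondrial chaperonin pair, fell by 2.05 ± 0.16 and 2.42 ± 0.28, HSPA8 by 1.64 ± 0.22, HSP90AA1 by 1.43 ± 0.23 and DUSP2 by 2.31 ± 0.26. FOS, an immediate early gene, stood at 6.16, 9.92 and 7.6 CPM at 0 h and 47.4, 41.4 and 38.8 CPM at 4 d (log2 fold change 2.43 ± 0.18, edgeR adjusted p = 1.6e-07). HSPA6, a stress-induced HSP70, rose by 1.98 ± 0.37, and ZFP36 by 0.82 ± 0.25, a call lost with the 6 libraries fitted alone and without replicate 1 or 3 at 0 h.

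**Figure D5:**
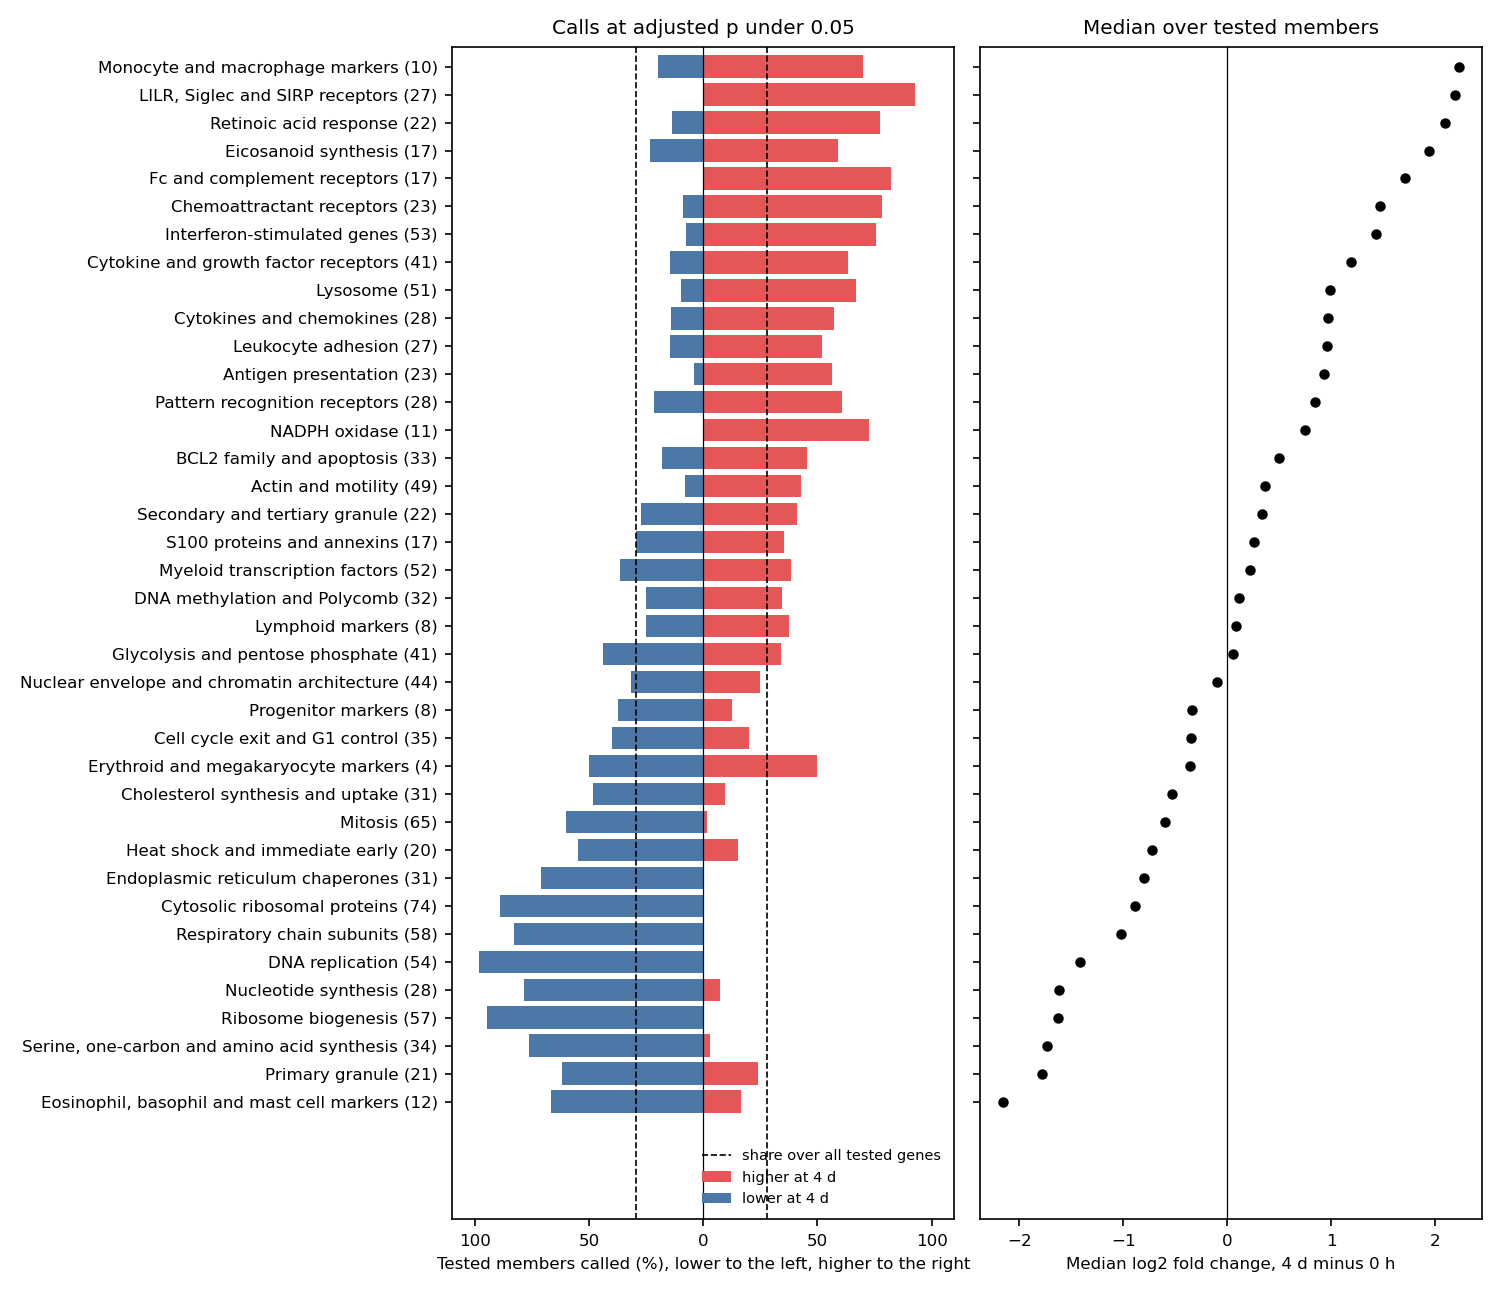
Each line is 1 of 38 gene lists, with its number of tested members in brackets. The left panel gives the percentage of tested members called higher (right) and lower (left), with dashed lines at the shares over all tested genes (28.1% and 29.7%), and the right panel the median log2 fold change, which ran from -2.16 for eosinophil, basophil and mast cell markers to 2.23 for monocyte and macrophage markers.

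Markers of other blood cells were measured beside these groups. Of 15 neutrophil lineage markers 15 had reads in every library at 0 h and at 4 d. Of these 6 were called higher, 6 lower and 3 not, namely MMP8, FCGR3B and CAMP. Reads in every library are a low bar, which CAMP met at few CPM, and do not by themselves show a lineage. Of 22 monocyte and macrophage markers 10 could be tested. Among these 7 were called higher and 2 lower (median log2 fold change 2.23), and their summed level went from between 308 and 420 CPM to between 674 and 873 CPM. CD36, a scavenger receptor, stood at 0.184, 0.182 and 0.292 CPM at 0 h and 66.2, 82.4 and 80.5 CPM at 4 d (log2 fold change 8.38 ± 0.43, edgeR adjusted p = 5.95e-09). ADAP2 rose by 4.40 ± 0.27, CD4 by 0.88 ± 0.20 and LGALS3 by 0.82 ± 0.16, beside CSF1R given above. The 2 called lower were FCN1, given above (-4.13 ± 0.29), and MARCO, a scavenger receptor named after its value was seen, which fell by 2.29 ± 0.71. CD14, not in this list, was also called lower, as given above. On the other hand 9 of the 22 had 3 reads or fewer over the 4 d libraries, among them MRC1, MSR1 and C1QB with 0. The part of such cells in the rise of receptor, lysosome and antigen presentation genes was not tested.

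Eosinophil, basophil and mast cell markers fell. Of 18, 12 were tested, 8 called lower and 2 higher (median log2 fold change -2.16, -1.517 without replicate 2 at 0 h and -1.364 without replicate 1 at 4 d as well), and the sum went from between 5446 and 8121 CPM to between 724 and 753 CPM. PRG2, the eosinophil major basic protein, gave most of the reads in that sum at 0 h but not at 4 d. It stood at 5411, 7351 and 4688 CPM at 0 h and 263, 209 and 212 CPM at 4 d (log2 fold change -4.67 ± 0.26, edgeR adjusted p = 1.32e-08). EPX, eosinophil peroxidase, stood at 223, 235 and 274 CPM at 0 h and 40.4, 66.3 and 51 CPM at 4 d (log2 fold change -2.21 ± 0.25, edgeR adjusted p = 5.71e-06). RNASE2 and RNASE3 fell by 3.33 ± 0.18 and 2.74 ± 0.28. PRG2, EPX and RNASE3 were also counted among the primary granule genes above, so the falls of these lists are partly the same values. CCR3, already given, and CLC (Charcot-Leyden crystal galectin, 0.62 ± 0.17) were the 2 called higher.

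Of 20 erythroid and megakaryocyte markers 11 had 0 reads in all 6 libraries and 4 were tested, 2 called higher and 2 lower. Of these ITGA2B fell by 1.87 ± 0.25 and GP1BA was called higher by 1.16 ± 0.35, a call lost without replicate 2 at 4 d. Of 25 lymphoid markers 5 had 0 reads and 8 were tested (median log2 fold change 0.08). Among the 8, 3 were called higher (37.5%, against 28.1%), each by at least 2-fold, and 2 lower (25.0%, against 29.7%). The summed level of the 25 markers was 108 to 140 CPM at 0 h and 64.9 to 79.3 CPM at 4 d. The 2 called lower were IGLL1, given above, and CD79A, a B cell receptor chain, which fell by 1.01 ± 0.25. The 3 called higher, CD3E, CD7 and GNLY, were under 1 CPM on average at 0 h and rose by 3.44 ± 0.40, 3.90 ± 0.62 and 1.58 ± 0.33. They fall outside the naming rule and were named after their values were seen. Of 18 progenitor markers 8 were tested, and 3 were called lower (37.5%, against 29.7%), which were TERT, GATA2 and MYB. SOX4 was the 1 called higher (12.5%, against 28.1%), by 1.19 ± 0.16. The summed level of the 18 markers went from between 475 and 563 CPM to between 175 and 201 CPM.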

How the data were processed

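RNA-seq of 12 HL-60 libraries was used, 3 per time point. The values are raw read counts per gene symbol, deposited by the authors as 1 table per library. The submitters' processing notes name FastQC, Trim Galore 0.6.7, HISAT2 2.1.0, HTSeq 1.99.2 and the build hg19. Not given in the sources used here were the annotation, library kit and strand setting, so overlapping and antisense genes cannot be told apart. HTSeq's 5 classes of unassigned reads were kept out of totals and tests: reads assigned to no gene were 17.5% to 23.2% of the reads in the 6 libraries compared. Groups follow the labels' time point, and no 2 libraries of a group agreed within sampling noise (chi-square per degree of freedom 3.47 to 98.02).

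Counts of all 12 libraries were fitted together in R 4.3.3 with the quasi-likelihood model of edgeR 4.0.16 (limma 3.58.1), with TMM factors, filterByExpr and 8 residual degrees of freedom, and p-values were adjusted after Benjamini and Hochberg over the 12671 genes tested. These were 12671 of 26364 genes in the files, of which 3098 had 0 reads, and held 99.9% of gene reads. On simulated data of 12671 genes for 4 d against 0 h, the test recovered 54% of 2-fold and 99% of 4-fold changes, with 9 false calls. The simulation changed 100 genes at each size, all with a mean of at least 5 CPM, while 7330 genes were called in the data. It also held no shift with GC content. Recovery and false calls in the data may therefore differ from these figures. CPM values use the TMM factors, SE comes from the fit, and gene lists (38, with 1339 entries) are described by counts and medians.

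The members and lists were chosen with earlier results of these data known. Named genes were the 15 largest changes each way (mean of at least 10 CPM, groups not overlapping, most non-coding symbols left out), up to 6 called members of a list each way (mean of at least 5 CPM) and a set of known myeloid and cell cycle genes. Promoter windows came from RefSeq's GRCh38.p14 table (35116 windows of 27305 genes), for names and letters only. Windows printed are those of the largest changes among the named members of the list described that hold the motif, except CYBB, chosen with its 2 matches known.

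Alternatives were RLE factors, library totals, no filter, DESeq2 1.42.0, the 6 libraries alone, the replicate number as a block, each library left out and, chosen after seeing the data, offsets for GC content. Both libraries that stood apart were also left out together. Some genes that the naming rule selects are not reported here.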

Additional observations from a re-analysis of the deposited data

Results flagged for a closer look

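Reads that HTSeq assigned to no gene stand outside the gene counts compared above, and their share was higher at 4 d than in the control libraries. They were 22.2% ± 1.0 (SD, n = 3; 21.2% to 23.2%) of the reads in the tables at 4 d and 19.1% ± 1.6 (n = 3; 17.5% to 20.8%) at 0 h, with no overlap between the groups. The share was 18.8% ± 2.5 (n = 3) at 2 d and 19.8% ± 7.4 (n = 3) at 4 h, where single libraries ran from 14.0% to 28.1%. The difference was not tested, and 3 libraries against 3 cannot go below an exact permutation p of 0.1. Its part in the gene results was not tested.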

How the results depend on the processing

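The count of 7330 genes called at 4 d against 0 h (7881 at an unadjusted p under 0.05) ran from 6453 with the 6 libraries alone to 8164 with GC content offsets, was 7477 in DESeq2, and ran from 6480 to 7597 when 1 library was left out. The 3374 genes called against 2 d became 2110 to 2798 when 1 library was left out. Of 330 called genes that the naming rule selects, 312 kept their call under all 14 alternatives and 18 lost it under at least 1. Another scaling moved the median over all genes by at most 0.067 (log2). For the lists whose median moved by more than the spread between replicates or by over 1.5 times, leaving out 1 library (or both that stood apart) gave medians of -1.906 to -1.608 for primary granules, 0.73 to 1.081 for the NADPH oxidase, 1.864 to 2.715 for retinoic acid response genes, -0.003 to 0.245 for myeloid transcription factors, 0.911 to 1.23 for cytokine receptors, -0.321 to -0.204 for cell cycle exit (-0.277 with library totals), -0.137 to 0.144 for glycolysis, 0.971 to 1.081 for lysosomes, -1.007 to -0.732 for endoplasmic reticulum chaperones, -0.258 to 0.018 for the nuclear envelope, 1.203 to 1.968 for eicosanoid synthesis, 2.152 to 2.372 for monocyte markers, -2.408 to -1.364 for eosinophil markers, 0.034 to 0.35 for lymphoid markers (0.157 with library totals), 0.014 to 0.304 for secondary and tertiary granules, 0.108 to 0.323 for S100 proteins and annexins, 0.027 to 0.161 for DNA methylation (0.174 with library totals), -0.767 to -0.445 for heat shock genes, -0.621 to -0.107 for erythroid markers and -0.534 to -0.172 for progenitor markers. Library totals gave 0.129 for glycolysis and -0.037 for the nuclear envelope, and GC content offsets -0.012 for the latter. The sign of TNFSF10, not called, changed: its log2 fold change was 0.006 with RLE factors, 0.053 with library totals, 0.005 in DESeq2, 0.055 with GC content offsets and -0.331 to 0.238 when 1 library was left out. The causes of these shifts were not tested. At this depth a gene with 0 reads in a group has a limit of 3 reads over that group.

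The replicate numbers were not used to pair libraries in the main fit, and the labels name no pairing. Deviations of same-numbered libraries from their group means correlated at -0.677, -0.809 and 0.671. Replicate 2 at 0 h and replicate 1 at 4 d, which stood apart with GC content, correlated at 0.849. With that difference among the libraries, such values cannot show whether same-numbered libraries share a culture. With the replicate number as a block 6701 genes were called at 4 d against 0 h, 6689 of them among the 7330, and 2536 against 2 d.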
